A study of Rattus norvegicus with 12 samples.

Results

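Rat aortic vascular smooth muscle cells, the contractile cells of the vessel wall, were compared after 12 h and after 6 h of angiotensin II (Ang II), the peptide hormone that constricts vessels and drives growth of their muscle. The comparison covered 14506 genes, 1 probe set per gene, on 6 of the 12 arrays of the study, 3 at each time. The cells came from the aorta of Sprague-Dawley rats, were grown in 10% fetal bovine serum and then deprived of serum for 48 h. Both groups received 100 nM Ang II. The study's other arrays are 3 of untreated cells titled 0 h (control) and 3 of cells after 24 h of Ang II. They enter here to show where a level at 12 h lies. Sample titles and design give 6, 12 and 24 h, whereas the treatment protocol names 1, 3 or 24 h, so the times rest on the titles. The arrays of a group are called biological replicates, but whether each is a separate animal or culture is not stated. The p-values therefore reflect array-to-array spread, which may be technical. Time in culture differs between 12 h and 6 h as well, and its part cannot be told apart from that of the hormone. The same holds for every comparison with control, since the series has no untreated arrays at 6, 12 or 24 h.

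Ang II acts on these cells mainly through the type 1 receptor, which couples to Gq, calcium and the MAP kinase ERK. A first wave of genes follows, encoding transcription factors of the Fos, Egr and Nr4a families, together with the phosphatases and Sprouty proteins that switch the MAP kinases off again. Their transcripts are short-lived, so that their levels follow signalling closely, while later waves carry genes of ribosome assembly, metabolism, the cell cycle and the extracellular matrix.

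Of the 14506 genes, 3910 differed between 12 h and 6 h (27%; limma, Benjamini-Hochberg adjusted p under 0.05). At 12 h 1894 were higher (13.1%) and 2016 were lower (13.9%). Most differences were small: 89.5% of the passing genes changed by less than 1.5-fold, and their median absolute log2 difference was 0.29. At least 1.5-fold changes numbered 196 higher (1.35%) and 213 lower (1.47%), and at least 2-fold changes 29 higher (0.2%) and 46 lower (0.317%). The largest fall, a log2 difference of −2.30, exceeded the largest rise, 1.54. In 5702 genes (39.3%) the 3 arrays of one time lay wholly above the 3 of the other. The median standard error of a log2 difference was 0.067. Array medians over the 14506 genes lay between 7.92 and 8.03 on all 12 arrays. Across genes, which are not independent replicates, the arrays of 1 time correlated at 0.9975 to 0.9983, and a 6 h with a 12 h array at 0.9927 to 0.9941.

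**Figure D1:**
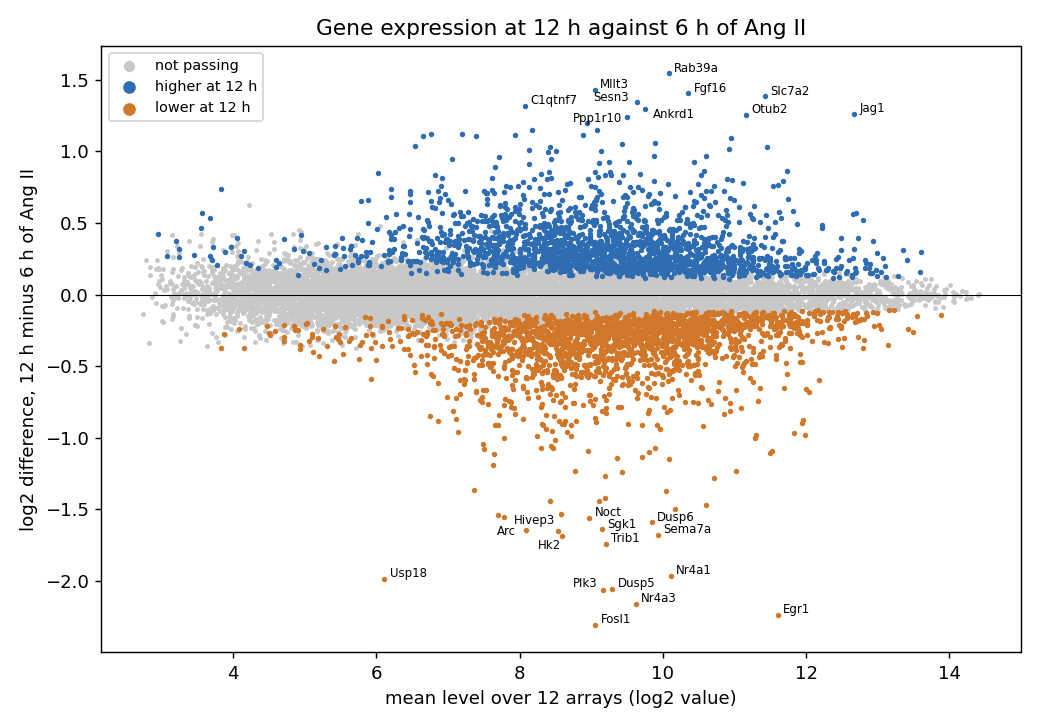
Log2 difference between 12 h and 6 h of Ang II (y axis) against the mean level over all 12 arrays (x axis, log2 value) for 14506 genes, with the 1894 passing genes that were higher at 12 h in blue, the 2016 that were lower in orange and the others in grey. The labelled falls, led by Fosl1 at −2.30 and Egr1 at −2.24, reach further from 0 than the labelled rises, led by Rab39a at 1.54.

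The immediate-early and AP-1 factors, transcription factors of the first wave, fell as a group between 6 h and 12 h. Of 24 measured members 15 fell and 2 rose, with a median log2 difference of −0.34, beside −0.00 over all genes. Of all genes 13.9% fell and 13.1% rose, and the counts of each list below stand beside these shares. The promoters of the 4 members whose level fell most among those with a RefSeq promoter are shown here, chosen by the size of the fall. Whether the motifs marked in them relate to the falls was not tested. Each runs from 250 bases before to 50 bases after the start site and is given 5′ to 3′ on the gene's strand in assembly GRCr8: Fosl1 at chr1:212183635-212183934, Egr1 at chr18:26736828-26737127, Nr4a1 at chr7:134259888-134260187 and Ier2 at chr19:40399123-40399422, all on the + strand. Capitals mark matches, on either strand, to the cyclic AMP response element (TGACGTCA) or its short form (TGACG, which the full element contains), to the CArG box bound by serum response factor, and to the EGR site (GCGNGGGCG).
Fosl1: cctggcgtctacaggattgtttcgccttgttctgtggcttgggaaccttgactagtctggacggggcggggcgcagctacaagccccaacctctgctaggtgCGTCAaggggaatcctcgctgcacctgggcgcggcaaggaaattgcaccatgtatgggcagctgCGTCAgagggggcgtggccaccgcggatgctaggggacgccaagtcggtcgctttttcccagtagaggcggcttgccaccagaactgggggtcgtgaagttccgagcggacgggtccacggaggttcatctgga
Egr1: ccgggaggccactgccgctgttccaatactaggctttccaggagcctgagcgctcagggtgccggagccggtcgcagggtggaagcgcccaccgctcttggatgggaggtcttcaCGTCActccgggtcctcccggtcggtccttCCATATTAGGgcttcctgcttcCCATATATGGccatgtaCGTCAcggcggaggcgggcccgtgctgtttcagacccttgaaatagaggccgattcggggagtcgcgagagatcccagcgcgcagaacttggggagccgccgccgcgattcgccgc
Nr4a1: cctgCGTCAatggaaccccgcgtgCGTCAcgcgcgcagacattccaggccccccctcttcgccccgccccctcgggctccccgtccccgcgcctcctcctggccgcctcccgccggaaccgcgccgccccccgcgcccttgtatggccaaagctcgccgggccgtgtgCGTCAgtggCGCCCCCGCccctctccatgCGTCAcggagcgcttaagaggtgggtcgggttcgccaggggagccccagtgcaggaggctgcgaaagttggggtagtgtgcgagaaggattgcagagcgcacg
Ier2: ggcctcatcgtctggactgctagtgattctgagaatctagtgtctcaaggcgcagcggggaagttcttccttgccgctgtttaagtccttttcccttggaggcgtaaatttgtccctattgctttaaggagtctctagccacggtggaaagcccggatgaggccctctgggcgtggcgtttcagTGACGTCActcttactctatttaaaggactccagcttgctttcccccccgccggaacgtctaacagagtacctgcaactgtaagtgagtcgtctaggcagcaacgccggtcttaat
In the Egr1 promoter both CArG boxes, at −105 to −96 and −83 to −74 from the start, lie between short forms of the cyclic AMP response element that begin at −135 and −66. Fosl1 holds that short form at −148 and −84, and Ier2 holds the full element at −66 to −59. Nr4a1 holds 4 short forms, and an EGR site at −73 to −65. Of 15 promoters of the list, 11 held the short form (73.3%, against 26.3% of 11970 promoters of measured genes), 3 the full one (20%, against 2.5%), 4 a CArG box (26.7%, against 1.3%) and 5 an EGR site (33.3%, against 7.8%). A match describes the letters in the window and is not evidence of binding.

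Fosl1, which encodes the AP-1 subunit Fra-1, had the largest fall of all genes. Its log2 level was 10.81, 10.94 and 11.02 on the 6 h arrays and 8.58, 8.57 and 8.71 on the 12 h arrays, a 4.94-fold decrease (log2 difference −2.30 ± 0.06, SE, n = 3 per group, adjusted p = 1.95e-09). The groups did not overlap, and the 12 h mean differed from the control mean by 0.05 ± 0.06 (adjusted p = 0.646). Fosl1 thus measured 2.35 above control at 6 h and close to the control mean at 12 h, and it was lower again at 24 h (24 h minus 12 h −0.51). These side-by-side comparisons share the 6 h or 12 h arrays with the main one and are given as each gene's own values.

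The other leading members started from a different place. Egr1, a zinc finger factor of the first wave, read 13.57, 13.51 and 13.56 in control, 12.19, 12.25 and 12.34 at 6 h, and 9.87, 10.14 and 10.06 at 12 h. It was already below control at 6 h, then fell another 4.72-fold by 12 h (−2.24 ± 0.07, adjusted p = 3.59e-09), to 3.53 log2 units under control. Nr4a1, an orphan nuclear receptor, took the same course with 10.70, 10.40 and 10.62 at 6 h and 8.46, 8.58 and 8.79 at 12 h (−1.96 ± 0.11, adjusted p = 1.9e-07), 3.33 units under control. Nr4a3, its relative, instead stood above control at 6 h (log2 difference 1.07) and below it at 12 h (−1.09). It measured 10.81, 10.85 and 10.89 at 6 h against 8.61, 8.70 and 8.76 at 12 h, a 4.47-fold fall (−2.16 ± 0.08, adjusted p = 1.46e-08).

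Fos itself was 8.52, 8.39 and 8.43 at 6 h and 7.39, 7.54 and 7.55 at 12 h (−0.95 ± 0.10, adjusted p = 2.56e-05). Its control arrays were at 10.41, 10.01 and 10.46, so the untreated cells had the highest Fos level of the series. Junb (−0.80 ± 0.07), Ier2 (−0.96 ± 0.13), Egr3 (−0.87 ± 0.09) and Egr2 (−0.71 ± 0.08) fell too, from 6 h levels that were already under control. The list as a whole had a median of −0.64 at 6 h and −1.10 at 12 h against control, and 0.03 at 24 h against 12 h. Myc (−0.16 ± 0.05, adjusted p = 0.051) and Atf3 (−0.16 ± 0.16, adjusted p = 0.521) did not pass. The 2 members that rose were Srf (0.25 ± 0.04), the factor that binds CArG boxes, and the AP-1 subunit gene Fosl2 (0.21 ± 0.04). List members beyond the 4 with the largest change, such as these and those of the later lists, were named after their values had been seen.

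The MAP kinase feedback regulators had the most negative median of the lists, −0.52. Of 17 members 12 fell and 2 rose. Unlike the immediate-early list, this one lay above control at 6 h, with a median of 0.40, and below it at 12 h, with a median of −0.32. On the 6 h arrays the list median was 0.26 to 0.53 over the control mean, and on the 12 h arrays it was −0.37 to −0.28. Dusp5, the phosphatase that inactivates ERK in the nucleus, read 10.36, 10.42 and 10.56 at 6 h and 8.51, 8.27 and 8.40 at 12 h. That is a 4.14-fold fall (−2.05 ± 0.07, adjusted p = 1.16e-08), from 0.61 above control to 1.44 below it.

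Dusp6, which acts on ERK in the cytoplasm, fell 3.01-fold from 10.96, 10.89 and 11.07 to 9.32, 9.41 and 9.41 (−1.59 ± 0.07, adjusted p = 4.04e-08). Spry2, a Sprouty inhibitor of receptor tyrosine kinase signalling, fell 2.36-fold (−1.24 ± 0.07), and Dusp10, a phosphatase for JNK and p38, 2.13-fold (−1.09 ± 0.07). Errfi1, an inhibitor of the EGF receptor, fell by 1.09, Spry4 by 0.91 and Dusp7 by 0.89 on the log2 scale. Dusp1, the best known of these phosphatases, read 12.61, 12.44 and 12.45 at 6 h and 12.47, 12.45 and 12.55 at 12 h. Its groups overlapped (−0.01 ± 0.05, adjusted p = 0.945), and the 6 h and 12 h means lay 0.79 and 0.80 below control. Dusp8 (0.32 ± 0.06) and Dusp16 (0.27 ± 0.08), phosphatases with a preference for JNK and p38, rose. The call of Dusp16 was lost without 6 h replicate 2 or 12 h replicate 3. Of 16 promoters of the list, 0 held an AP-1 site (TGANTCA, either strand), against 6.2% of 11970.

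**Figure D2:**
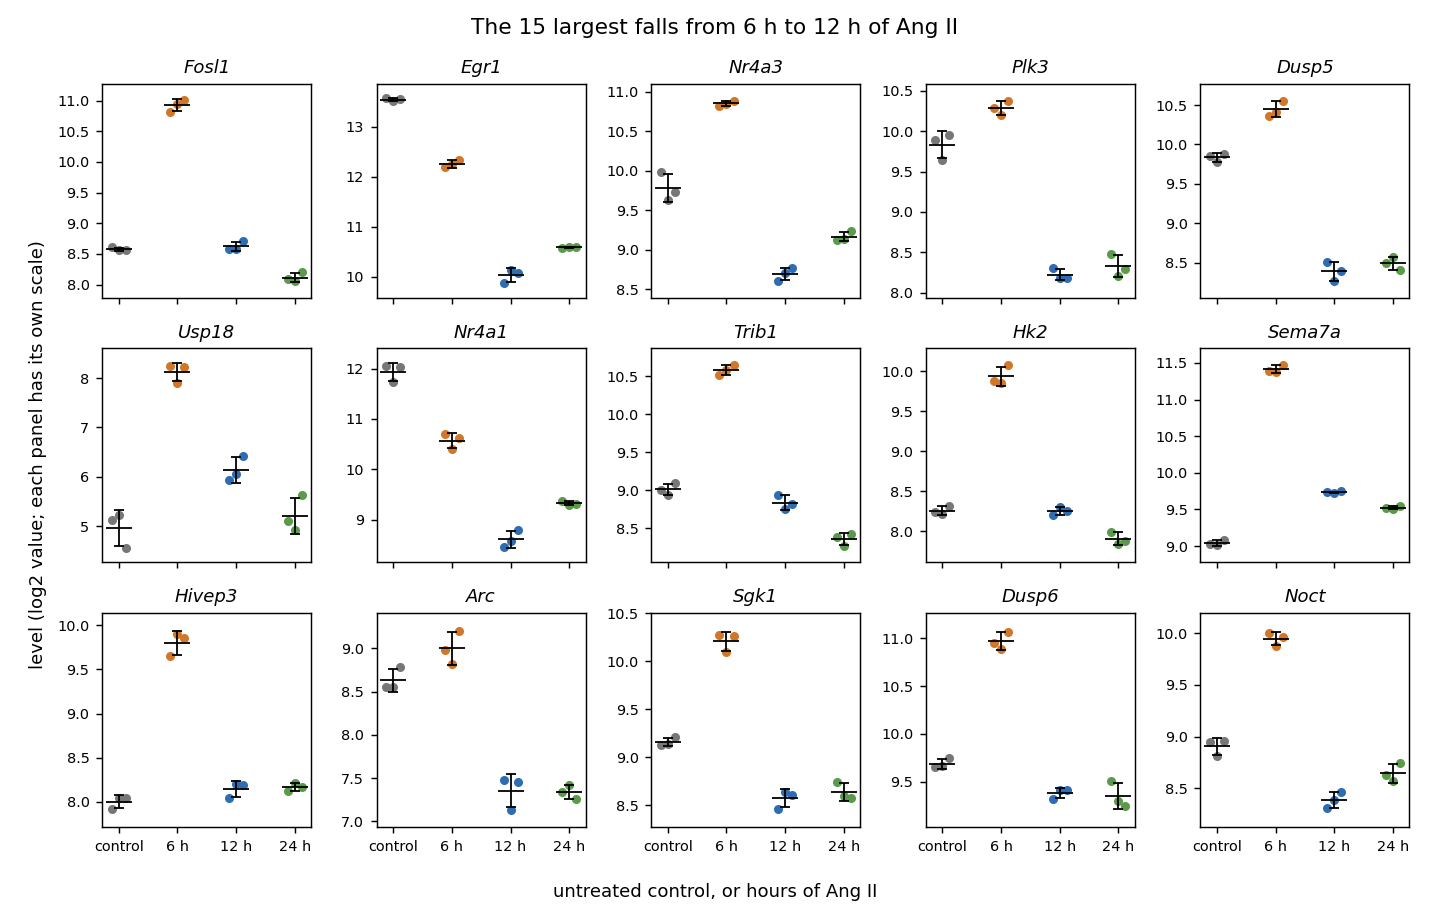
Log2 level of the 15 genes with the largest fall from 6 h to 12 h (y axis, own scale per panel) in the untreated control and after 6, 12 and 24 h of Ang II (x axis). Points are arrays, bars the mean and SD of 3 arrays. In each panel the 3 arrays at 12 h lie below the 3 at 6 h. At 12 h Fosl1 and Hk2 lie near their control arrays, whereas Egr1 and Nr4a1 lie far below theirs.

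Kinases and other regulators completed the largest falls. Plk3, a stress-responsive polo-like kinase, measured 10.28, 10.20 and 10.38 at 6 h and 8.30, 8.18 and 8.18 at 12 h (−2.06 ± 0.09, adjusted p = 4.04e-08), 1.61 below control. Trib1, a pseudokinase that directs proteins to degradation, fell 3.34-fold (−1.74 ± 0.06), and Sgk1, a kinase of ion transport and survival, 3.11-fold (−1.64 ± 0.07). Sema7a, a membrane-anchored semaphorin, went from 11.39, 11.38 and 11.47 to 9.73, 9.73 and 9.75 (−1.68 ± 0.04, adjusted p = 1.41e-09) and remained 0.69 above control. Hivep3, a zinc finger factor, fell by 1.65, Arc, known from neurons as an activity-regulated cytoskeletal protein, by 1.64, and Noct by 1.56. Arc and Noct ended under control, by 1.27 and 0.52.

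Usp18, which removes the ubiquitin-like modifier ISG15 and damps interferon signalling, fell 3.96-fold (−1.99 ± 0.21, adjusted p = 3.03e-05). Its arrays were at 8.24, 7.91 and 8.22 at 6 h and 5.93, 6.06 and 6.43 at 12 h, against 5.12, 5.23 and 4.55 in control. The interferon-responsive genes as a list were mixed: of 24 measured, Usp18 included, 3 fell and 5 rose, where 13.9% of all genes fell and 13.1% rose. The list median was 0.04 (0.02 to 0.07 over the fits without 1 array). Isg15 (0.02), Ifit1 (−0.10) and Mx1 (−0.11) did not pass. Their 6 h means were 6.43, 5.32 and 4.72, near or below the lower quartile of all genes, 6.29. At such levels the lack of a call says little about their course. Irf7 (−0.40 ± 0.10) and Ifih1 (−0.40 ± 0.11) fell, whereas Gbp5, a guanylate-binding protein, rose from 7.32, 7.23 and 7.30 to 8.09, 8.17 and 8.11 (0.84 ± 0.05). The call of Ifih1 was lost without 6 h replicate 3 or 12 h replicate 1. The count of 5 rises fell to 3 without either replicate 2 array (6 h or 12 h), and to 2 without 6 h replicate 2 and 12 h replicate 1.

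Secreted growth factors moved in both directions. Of 34 growth factors and cytokine-like ligands, 14 fell and 9 rose, and the median was −0.10. Hbegf, the EGF receptor ligand that is shed when Ang II transactivates that receptor, measured 11.37, 11.38 and 11.57 at 6 h and 9.95, 9.93 and 10.02 at 12 h. It fell 2.77-fold (−1.47 ± 0.06, adjusted p = 2.5e-08), from 0.88 above to 0.59 below control. Ereg, a second ligand of that receptor, fell 2.21-fold (−1.15 ± 0.08) and fell further by 24 h (24 h minus 12 h −1.04).

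Pdgfb, a chain of the smooth muscle mitogen PDGF, was at 7.93, 7.71 and 7.90 and then at 6.92, 6.93 and 6.80 (−0.96 ± 0.07, adjusted p = 1.79e-06), 0.05 ± 0.07 above the control mean. Fgf2 fell by 0.81 but was still 0.74 above control. Pdgfd (−0.78 ± 0.08), Vegfd (−0.69 ± 0.08), Lif (−0.58 ± 0.08) and Edn1 (−0.43 ± 0.07), the endothelin precursor, fell as well. Among the rises, Fgf16, a fibroblast growth factor, was at 9.14, 8.79 and 8.91 at 6 h and 10.19, 10.35 and 10.51 at 12 h (1.40 ± 0.10, adjusted p = 1.15e-06), still 1.35 below control. Hgf, the hepatocyte growth factor, was at 7.46, 7.24 and 7.30 and then at 8.14, 8.22 and 8.29 (0.89 ± 0.07). It differs from Fgf16 in that its 6 h mean was 0.07 from control (adjusted p = 0.51) and its 12 h mean 0.96 above it. Fgf18 (0.78 ± 0.04) and Fgf1 (0.56 ± 0.07) rose too.

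Of 33 inflammatory genes 10 fell and 3 rose, with a median of −0.07 (−0.10 without 6 h replicate 3). Nfkbiz, a nuclear cofactor of NF-kB, fell 2.2-fold (−1.13 ± 0.08), from 10.46, 10.39 and 10.44 to 9.31, 9.30 and 9.27. Ptgs2, which encodes cyclooxygenase-2, fell by 1.00 ± 0.07 on the log2 scale, from a 6 h mean 0.19 below control. Icam1, a leukocyte adhesion receptor, measured 11.07, 11.08 and 11.15 at 6 h and 10.44, 10.46 and 10.44 at 12 h (−0.65 ± 0.04, adjusted p = 4.65e-07), which was 0.09 ± 0.04 from control. Cx3cl1 fell by 0.54. The rises were Il6 (0.42 ± 0.10), Il1rl1 (0.38) and Lcn2 (0.21), and Ccl2 (−0.06) and Tnf (0.06) did not pass. Lcn2 and Tnf were dim, with 6 h means of 6.39 and 6.46 beside a lower quartile of all genes of 6.29. Without 12 h replicate 3 the rises numbered 5, and the call of Lcn2 was lost without 6 h replicate 1 or 12 h replicate 1.

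In the plasminogen system, which activates the protease plasmin at the cell surface, urokinase and its receptor fell. Plaur, the urokinase receptor, fell 2.35-fold from 11.90, 11.85 and 11.97 to 10.66, 10.67 and 10.69 (−1.23 ± 0.05, adjusted p = 2.5e-08), a level 0.06 ± 0.05 from control. Plau, urokinase itself, fell by 0.50 and stayed 1.02 above control. Plat, the tissue plasminogen activator, measured 11.78, 11.68 and 11.76 at 6 h and 11.64, 11.62 and 11.56 at 12 h. That difference did not pass (−0.13 ± 0.07, adjusted p = 0.194), and at 12 h the gene was still 3.26 above control. Of the 25 matrix proteases and plasminogen genes, 5 fell and 3 rose, where 13.9% of all genes fell and 13.1% rose. The falls include Tfpi2 (−1.19 ± 0.12), a protease inhibitor, and Adamts1 (−0.66 ± 0.05), and the rises Adamts15 (0.51 ± 0.07). The list median of −0.04 was −0.06 to −0.01 over the fits without 1 array, and turned positive over genes above the median level (0.02) and without 6 h replicate 2 and 12 h replicate 1 (0.03).

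Of 12 mRNA decay and antiproliferative factors 6 fell, 3 rose and 3 did not pass. Zfp36l2, which binds AU-rich elements, fell 2.1-fold (−1.07 ± 0.06) from 10.52, 10.48 and 10.57 to 9.36, 9.54 and 9.47, and its relative Zfp36 fell by 0.76. Zc3h12a, an endonuclease of inflammatory transcripts, fell by 0.62. Btg1, an antiproliferative factor, rose by 0.56 ± 0.04 from 12.02, 12.00 and 11.98 to 12.54, 12.58 and 12.58.

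Ribosome biogenesis genes, which encode the machinery of ribosomal RNA synthesis and processing, fell almost throughout. Of 29 members 25 fell and 0 rose, with a median of −0.44. The list median on single arrays was 0.21 to 0.29 over the control mean at 6 h and −0.26 to −0.17 at 12 h, so the 2 times lay on opposite sides of control. Polr1e, a subunit of RNA polymerase I, read 8.95, 8.76 and 8.95 at 6 h and 7.89, 7.95 and 8.10 at 12 h, a 1.88-fold fall (−0.91 ± 0.08, adjusted p = 7.04e-06). Nop56, of the box C/D small nucleolar ribonucleoprotein, fell from 11.29, 11.36 and 11.34 to 10.56, 10.48 and 10.43 (−0.84 ± 0.04, adjusted p = 1.72e-07) and ended 0.44 below control. Gnl3, nucleostemin, fell by 0.79, and Heatr1 by 0.75. The 4 members that did not pass were Gar1 (−0.25), Polr1c (−0.18), Nop16 (−0.10) and Dkc1 (−0.08). The median difference of 24 h from 12 h was −0.02. The E-box (CACGTG, either strand) stood in 7 of its 26 promoters (26.9%), against 7.9% of 11970. The promoters of Polr1e and Nop56, the members with the largest falls, did not hold it. Those of Gnl3, which fell, and of Dkc1, which did not pass, did.

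Amino acid supply followed in part. Of 27 ATF4 targets and amino acid supply genes 15 fell and 1 rose, with a median of −0.19. Slc7a11, the cystine transporter, measured 9.48, 9.60 and 9.61 at 6 h and 8.29, 8.33 and 8.38 at 12 h (−1.23 ± 0.06, adjusted p = 1.64e-07). Slc7a5, a large neutral amino acid transporter that feeds mTORC1, fell from 12.46, 12.52 and 12.54 to 11.53, 11.53 and 11.52 (−0.98 ± 0.04, adjusted p = 2.5e-08). Both crossed from above control to 0.50 below it. Slc7a8, another neutral amino acid transporter, fell only 1.55-fold (−0.63 ± 0.05) and was 2.81 above control at 12 h, before it dropped by 3.20 to 24 h. Atf4 itself gave −0.03 ± 0.04 (adjusted p = 0.603). The 1 rise was that of Vldlr, a lipoprotein receptor (0.31 ± 0.04).

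Of 20 genes for chaperones and the unfolded protein response of the endoplasmic reticulum, 6 fell, 1 rose and the median was −0.04. Hspa5, the chaperone BiP, fell from 13.78, 13.78 and 13.79 to 13.51, 13.53 and 13.53 (−0.26 ± 0.04, adjusted p = 0.000359) and was still 0.17 above control. Syvn1 (−0.30 ± 0.05) and Dnajb9 (−0.30 ± 0.07), which serve the degradation of misfolded proteins, and Creld2 (−0.23 ± 0.06) fell too, and Sdf2l1 rose (0.13 ± 0.04). The call of Sdf2l1 was lost without 6 h replicate 1 or 2 and without 12 h replicate 2 or 3. In 7 of the 16 promoters of the list (43.8%) there was an ER stress response element, against 15 of 11970 (0.1%).

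Glucose metabolism genes passed in both directions. Hk2, the inducible hexokinase, read 9.88, 9.85 and 10.07 at 6 h and 8.20, 8.31 and 8.24 at 12 h, a 3.22-fold fall (−1.69 ± 0.07, adjusted p = 1.98e-08) to a level 0.00 ± 0.07 from the control mean (adjusted p = 0.972). The glucose transporters Slc2a1 and Slc2a3 fell by 0.48 each, and the lactate transporter Slc16a1 by 0.60. Pfkm, a phosphofructokinase, rose by 0.52 ± 0.07, while Gapdh (0.02) and Eno1 (0.02) did not pass. The mean of Pfkl was 9.59 at 6 h and 9.94 at 12 h, and that of Bnip3 11.11 and 11.50. Over the 29 glycolysis and hypoxia-responsive genes 7 fell and 8 rose, where 13.9% of all genes fell and 13.1% rose. The list median was 0.02 (0.01 to 0.03 over the fits without 1 array).

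**Figure D3:**
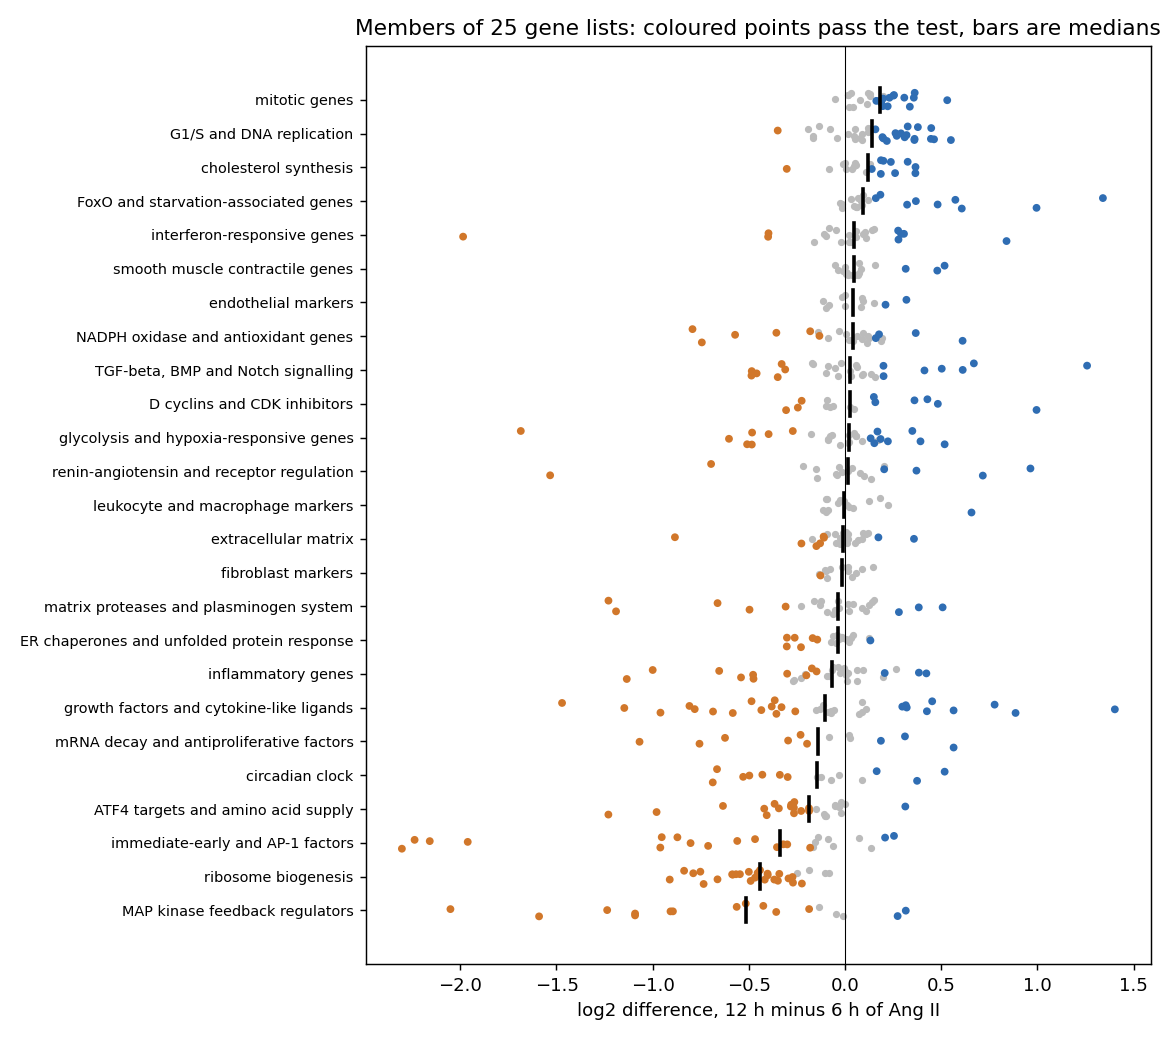
Log2 difference between 12 h and 6 h of Ang II (x axis) for each measured member of 25 gene lists (rows, ordered by median). Blue and orange points are members that passed as higher or lower, grey points did not pass, and black bars are medians. The MAP kinase feedback regulators (median −0.52), ribosome biogenesis genes (−0.44) and immediate-early factors (−0.34) lie furthest left, and the mitotic genes (0.18) furthest right.

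The largest rises came from several gene families. Rab39a, a GTPase of vesicle traffic, led with 8.92, 8.61 and 8.74 at 6 h and 10.32, 10.33 and 10.25 at 12 h, a 2.91-fold increase (1.54 ± 0.07, adjusted p = 4.6e-08). It was 1.31 below control at 6 h and 0.23 above it at 12 h, and rose by 0.90 more to 24 h. Mllt3, a reader protein of the super elongation complex, rose 2.69-fold (1.43 ± 0.09) from 8.10, 7.66 and 7.92 to 9.25, 9.39 and 9.32, and was 0.34 below control. Cyp3a9 took another course. This cytochrome P450 gene measured 7.26, 7.25 and 7.33 in control, 7.98, 8.12 and 8.09 at 6 h, 9.31, 9.11 and 9.21 at 12 h, and 8.06, 8.11 and 8.25 at 24 h, so that its highest arrays were those at 12 h (1.15 ± 0.07, adjusted p = 2.82e-07).

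Slc7a2, a transporter of arginine and other cationic amino acids, read 10.33, 10.20 and 10.27 at 6 h and 11.63, 11.68 and 11.64 at 12 h (1.38 ± 0.05, adjusted p = 1.11e-08), 0.04 ± 0.05 under control. Ankrd1, a nuclear ankyrin repeat protein, rose 2.46-fold (1.30 ± 0.06) and C1qtnf7, a secreted C1q-like protein, 2.49-fold (1.32 ± 0.07), and both ended below control, by 0.46 and 0.84. Otub2, a deubiquitinase, rose by 1.26, Ppp1r10, a nuclear targeting subunit of protein phosphatase 1, by 1.24, and the protocadherin gene Pcdh20 by 1.20. Etv1, an ETS transcription factor, rose 2.22-fold (1.15 ± 0.07) and was 0.56 above control at 12 h. Itgb8, an integrin subunit that activates latent TGF-beta, rose by 1.12 ± 0.10, and Klhl38 by 1.12 ± 0.12.

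**Figure D4:**
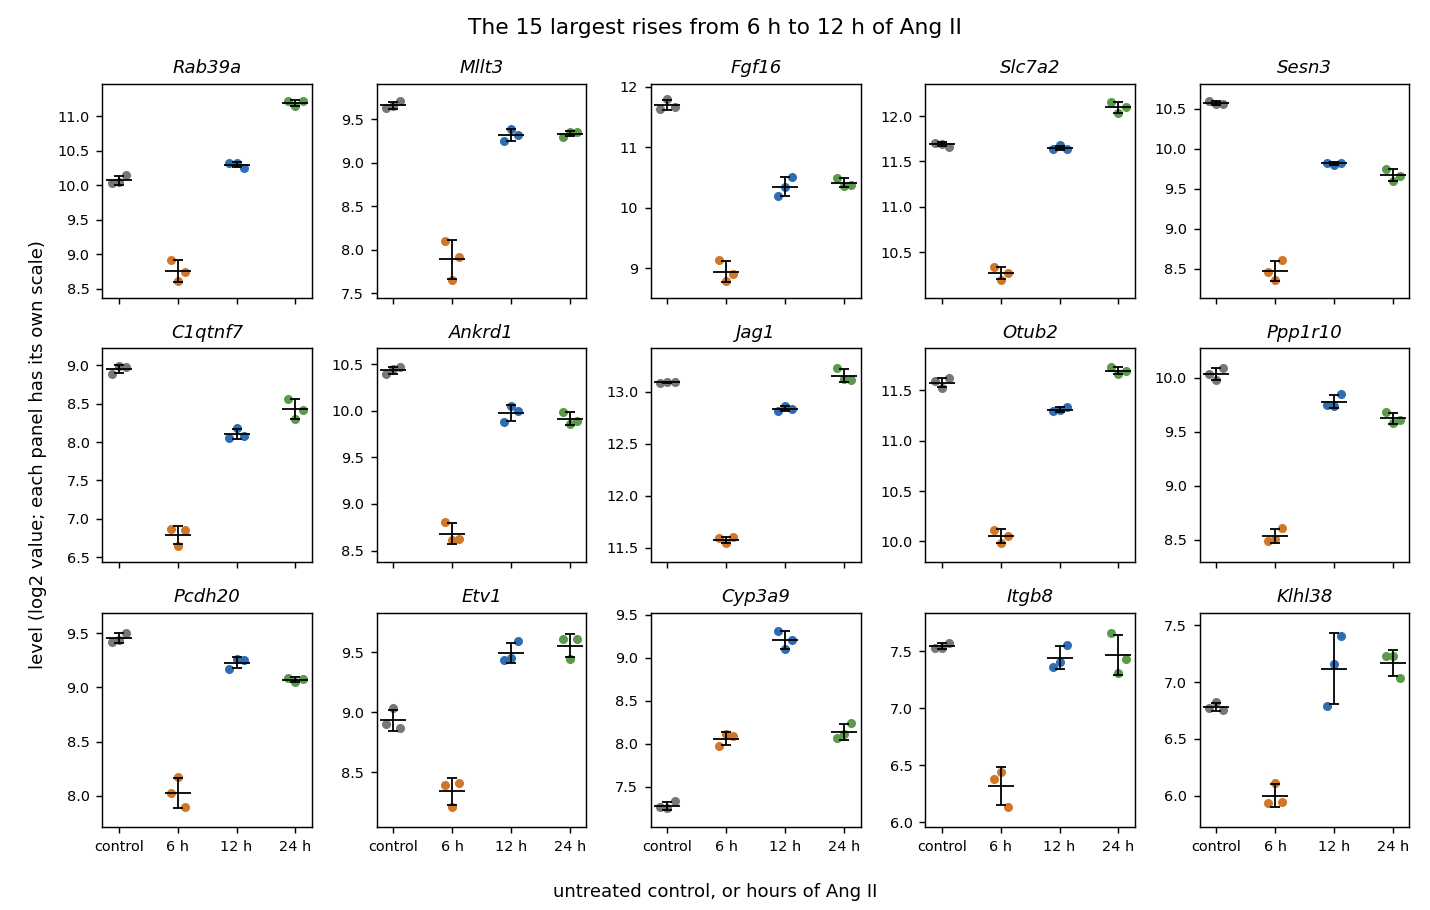
Log2 level of the 15 genes with the largest rise from 6 h to 12 h (y axis, own scale per panel) in the untreated control and after 6, 12 and 24 h of Ang II (x axis). Points are arrays, bars the mean and SD of 3 arrays. In each panel the 3 arrays at 12 h lie above the 3 at 6 h. Rab39a goes from 1.31 below control at 6 h to 0.23 above it at 12 h, whereas Cyp3a9 climbs from control over 6 h to a peak at 12 h.

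Jag1, a Notch ligand, was among the largest rises as well. It measured 11.59, 11.54 and 11.60 at 6 h and 12.81, 12.87 and 12.83 at 12 h, a 2.39-fold increase (1.26 ± 0.04, adjusted p = 1.11e-08), with control at 13.08, 13.09 and 13.09. Hey2, a Notch target in vascular smooth muscle, rose 1.59-fold (0.67 ± 0.04) from 11.18, 11.13 and 11.16 to 11.81, 11.82 and 11.86. Another Notch target, Hes1, fell instead (−0.35 ± 0.08). Id2, a BMP-responsive inhibitor of helix-loop-helix factors, rose by 0.61, whereas Id1 fell by 0.33. Of the inhibitory Smads, Smad6 rose (0.41 ± 0.05) and Smad7 fell (−0.46 ± 0.04). Over 28 TGF-beta, BMP and Notch genes 7 rose and 6 fell, where 13.1% of all genes rose and 13.9% fell. The list median was 0.03 (0.01 without 6 h replicate 1).

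Of 21 FoxO and starvation-associated genes, which include FoxO factors themselves, 9 rose, 0 fell and 12 did not pass, and the median was 0.10. Sesn3, a sestrin that restrains mTORC1, went from 8.46, 8.36 and 8.60 to 9.82, 9.80 and 9.83 (1.34 ± 0.06, adjusted p = 4.49e-08), and was 0.75 below control. Ccng2, cyclin G2, rose 1.99-fold (1.00 ± 0.07) from 7.77, 7.62 and 7.65 to 8.64, 8.64 and 8.74. Fbxo32, the ubiquitin ligase atrogin-1, rose by 0.61 ± 0.08, and Pdk4, which closes pyruvate dehydrogenase, by 0.57 ± 0.08. The list median was −0.35 at 6 h and −0.16 at 12 h against control. Txnip, an inhibitor of thioredoxin, gave −0.02 ± 0.05 and stayed 0.84 above control.

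The main receptor for the hormone rose but stayed below control. Agtr1a, the type 1a Ang II receptor, read 9.29, 9.10 and 9.27 at 6 h and 9.91, 9.91 and 9.97 at 12 h, a 1.64-fold increase (0.72 ± 0.06, adjusted p = 3.5e-06). Its control arrays were at 11.75, 11.80 and 11.80, so the 12 h level was 1.85 below control, and the 24 h arrays at 10.60, 10.51 and 10.65 were higher than those at 12 h. Agtr1b (0.20 ± 0.08, adjusted p = 0.0985) and Agtr2 (0.02 ± 0.13, adjusted p = 0.953) did not pass, and all their arrays lay between 5.73 and 6.56, around the lower quartile of all genes, 6.29. Of the RGS proteins, which shorten the signal of Gq, those with the largest changes went separate ways. The smaller changes were those of Rgs3, with means of 8.02 at 6 h and 8.16 at 12 h, and Rgs5, with 7.00 and 6.78. Rgs16 fell 2.89-fold from 9.61, 9.57 and 9.68 to 8.07, 8.09 and 8.10 (−1.53 ± 0.08, adjusted p = 1.04e-07) and Rgs2 fell 1.62-fold (−0.70 ± 0.07), both from above control. Rgs4 rose 1.95-fold from 9.15, 8.64 and 8.90 to 9.76, 9.89 and 9.94 (0.96 ± 0.10, adjusted p = 3.12e-05), having been below control at 6 h. Of the 19 renin-angiotensin and receptor regulation genes 4 rose and 2 fell, where 13.1% of all genes rose and 13.9% fell.

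Of 34 G1/S and DNA replication genes 17 rose, 1 fell and 16 did not pass, with a median of 0.14. Tyms, thymidylate synthase, went from 9.83, 9.74 and 9.87 to 10.29, 10.39 and 10.42 (0.55 ± 0.05, adjusted p = 1.28e-05), 0.10 ± 0.05 from control. E2f1, the S-phase transcription factor, rose by 0.46 ± 0.05, and Mcm10 and Pola1, which start DNA synthesis, by 0.45 each. Ccne1, cyclin E1, was the member that fell (−0.35 ± 0.09), a call lost without 6 h replicate 1 or 12 h replicate 2. The falls numbered 2 without 6 h replicate 2 or 12 h replicate 3. From 12 h to 24 h 31 of the list fell and 0 rose, where 13.5% of all genes fell and 14% rose.

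Of 26 mitotic genes 13 rose, 0 fell and 13 did not pass, with a median of 0.18. Nusap1, a spindle protein, measured 9.38, 9.13 and 9.23 at 6 h and 9.77, 9.79 and 9.78 at 12 h (0.53 ± 0.06, adjusted p = 2.68e-05). Tpx2 (0.36 ± 0.05), Bub1 (0.36 ± 0.08) and Ccnb2 (0.34 ± 0.05) rose as well, while Cdk1 (0.17 ± 0.06, adjusted p = 0.0544) and Ccna2 (0.12 ± 0.07) did not pass. All 26 were below control at 6 h, as were 17.2% of all genes, and 25 still were at 12 h, beside 13.3% (each adjusted p under 0.05). The count of 13 became 8 when the array with the narrowest spread of values was left out at each time (6 h replicate 2 and 12 h replicate 1).

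D cyclins and CDK inhibitors gave 6 rises and 3 falls of 15. Cdkn1b, the inhibitor p27, rose from 10.09, 10.03 and 9.99 to 10.35, 10.44 and 10.40 (0.36 ± 0.04), and Cdkn2c, the inhibitor p18, rose by 0.43 ± 0.06. Ccnd1, cyclin D1, fell by 0.23 ± 0.05, a small step beside its fall of 1.17 from 12 h to 24 h. The list median of 0.03 changed sign without 6 h replicate 3 or 12 h replicate 1, and the 3 falls became 1 without 6 h replicate 2 and 12 h replicate 1.

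Of 20 cholesterol synthesis genes 9 rose, 1 fell and 10 did not pass, with a median of 0.12. Without 6 h replicate 2 and 12 h replicate 1 the rises numbered 6. Against control the median was 0.32 at 6 h and 0.54 at 12 h. On single arrays the list median was 0.32 to 0.40 above the control mean at 6 h, 0.51 to 0.56 at 12 h, and −0.06 to −0.05 at 24 h. Thus every 12 h array had a higher list median than every array of the other times. Lss, lanosterol synthase, measured 11.19, 11.27 and 11.32 at 6 h and 11.67, 11.61 and 11.60 at 12 h (0.37 ± 0.05, adjusted p = 0.000168), and Tm7sf2, a sterol reductase, 9.45, 9.46 and 9.47 and then 9.87, 9.80 and 9.80 (0.37 ± 0.04, adjusted p = 6.18e-05). Mvk, mevalonate kinase, rose by 0.33 ± 0.05. Sqle (0.03) and Insig1 (0.01), which had both risen by 6 h, did not pass. The fall was that of Stard4 (−0.30 ± 0.05), a sterol carrier.

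Promoters of both leading cholesterol genes, chosen by the size of their change, are shown with the CCAAT box, which NF-Y binds beside SREBP, marked. In assembly GRCr8 they lie at chr20:12118181-12118480 for Lss and chr1:212789492-212789791 for Tm7sf2, both on the − strand and given 5′ to 3′ along the gene. Capitals mark CCAAT on either strand.
Lss: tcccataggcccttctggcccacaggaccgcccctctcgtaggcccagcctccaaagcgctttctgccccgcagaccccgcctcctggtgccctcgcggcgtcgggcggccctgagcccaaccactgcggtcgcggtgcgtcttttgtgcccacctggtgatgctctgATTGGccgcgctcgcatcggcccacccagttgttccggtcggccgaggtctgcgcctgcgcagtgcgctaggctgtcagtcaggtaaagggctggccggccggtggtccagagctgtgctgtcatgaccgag
Tm7sf2: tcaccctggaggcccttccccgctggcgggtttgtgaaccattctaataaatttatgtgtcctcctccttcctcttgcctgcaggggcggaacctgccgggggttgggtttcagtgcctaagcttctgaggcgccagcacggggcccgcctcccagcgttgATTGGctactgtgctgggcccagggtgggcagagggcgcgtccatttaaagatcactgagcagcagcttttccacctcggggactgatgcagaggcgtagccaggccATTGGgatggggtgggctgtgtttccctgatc
Lss holds the box at −82 to −78, and Tm7sf2 at −89 to −85 and at 18 to 22 from the start. Of 16 promoters of the list 13 held it (81.2%), against 38.3% of 11970. The sterol regulatory element searched (TCACNCCAC, either strand) stood in 0 of the 16 and in 1.1% of all. A match or its absence describes these letters in this window.

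**Figure D5:**
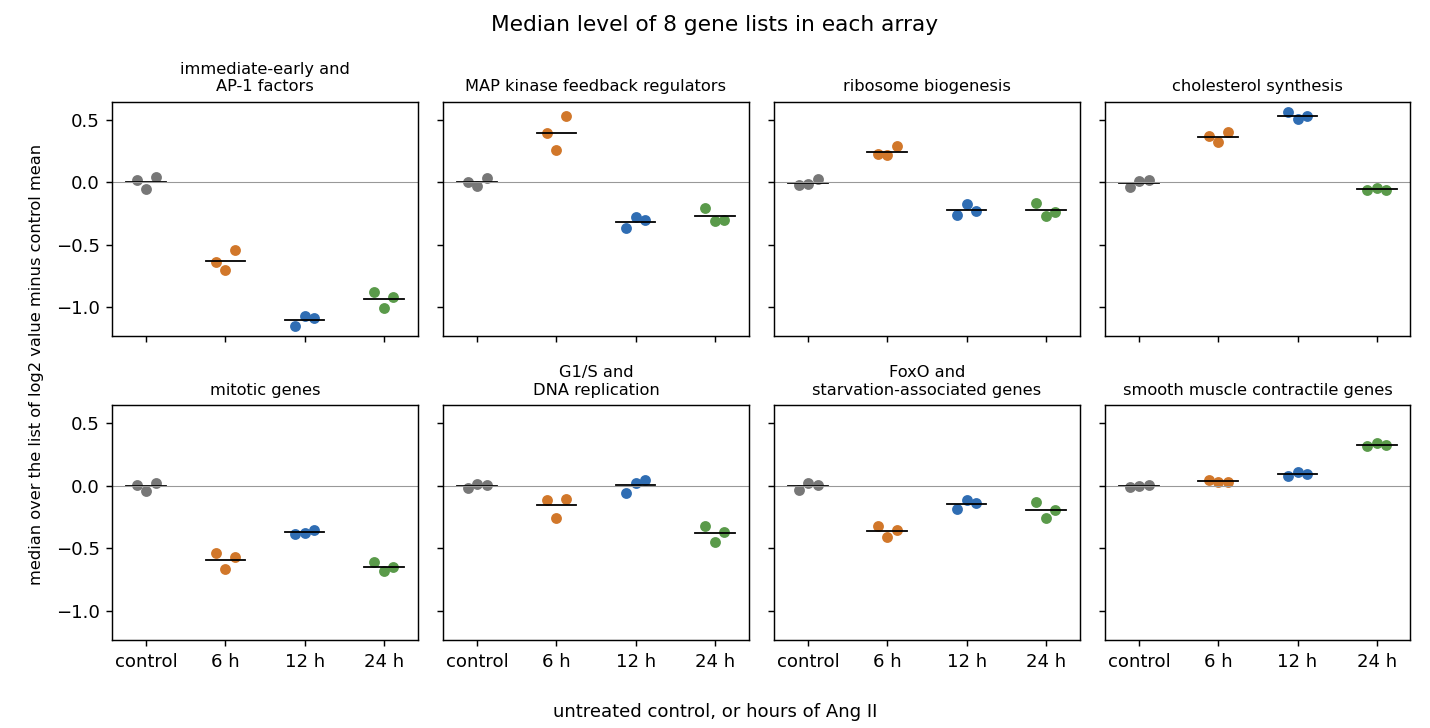
Median over the members of 8 gene lists of the log2 value minus the gene's control mean (y axis) for each array in the untreated control and after 6, 12 and 24 h of Ang II (x axis). Points are arrays and bars the mean of 3. From 6 h to 12 h the MAP kinase feedback and ribosome biogenesis lists cross from above to below the control level, the cholesterol synthesis list climbs to between 0.51 and 0.56, and the smooth muscle contractile list stays within 0.11 of control.

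Of 15 circadian clock genes 7 fell, 3 rose and 5 did not pass. Their median was −0.15, and it was −0.08 without 12 h replicate 1 and −0.21 without 12 h replicate 3. Cry2 fell from 9.96, 9.97 and 10.04 to 9.21, 9.36 and 9.33 (−0.69 ± 0.07) and Cry1 by 0.53, and Per1 and Per2 fell by 0.50 and 0.43. These are repressors of the clock. Per3, of the same family as Per1 and Per2, rose instead (0.16), a call lost in 4 of 6 fits without 1 array. Bhlhe40, a repressor that signals also induce, fell by 0.67 ± 0.06 to 0.10 ± 0.06 from control. The clock output gene Dbp rose from 8.73, 8.68 and 8.78 to 9.22, 9.33 and 9.20 (0.52 ± 0.06), and Bmal1 (−0.07 ± 0.07) did not pass.

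Contractile genes, which mark differentiated smooth muscle, stayed close to their 6 h levels. Of 18 members 3 rose and 0 fell, where 13.1% of all genes rose and 13.9% fell, and the median was 0.04. The 3 were Pln, phospholamban, from 12.43, 12.31 and 12.34 to 12.88, 12.89 and 12.87 (0.52 ± 0.04, adjusted p = 5.62e-06), Lmod1, leiomodin (0.48 ± 0.04), and Mylk, myosin light chain kinase (0.32 ± 0.04). Acta2 measured 14.37, 14.37 and 14.35 and then 14.37, 14.35 and 14.37, near the top of the scale. Myh11 (0.07), Tagln (0.02) and Cnn1 (0.05) did not pass either. With a trended and robust variance 7 of the 18 passed as higher. On single arrays the list median was 0.03 to 0.05 over the control mean at 6 h and 0.082 to 0.109 at 12 h, without overlap. From 12 h to 24 h 13 of the list rose, beside 14% of all genes.

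Of 29 matrix genes 2 rose, 6 fell and 21 did not pass, where 13.1% of all genes rose and 13.9% fell. The list median was −0.01. Has2, the inducible hyaluronan synthase, fell from 7.68, 7.63 and 7.94 to 6.74, 6.84 and 7.01 (−0.88 ± 0.10, adjusted p = 5.61e-05), and Mgp, an inhibitor of calcification, rose by 0.36 ± 0.07. The other falls were at most 0.23, that of Col11a1. The 6 falls became 2 in the fit of the 6 h and 12 h arrays alone and without 6 h replicate 1, 6 h replicate 3, 12 h replicate 1 or 12 h replicate 2, and the median changed sign without 6 h replicate 3.

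Among redox genes Nox4, a catalytic subunit of NADPH oxidase, rose from 9.78, 9.69 and 9.74 to 10.39, 10.32 and 10.33 (0.61 ± 0.05, adjusted p = 3.31e-06) and was 0.24 below control. Nox1, another catalytic subunit, had means of 5.65 in control, 7.06 at 6 h and 7.26 at 12 h. Several genes of the Nrf2 response fell, though not all. Hmox1, heme oxygenase 1, fell by 0.79 ± 0.07, Gclc, for glutathione synthesis, by 0.74 ± 0.05 and Txnrd1 by 0.57 ± 0.06, whereas Nqo1 fell by only 0.13 and stayed 0.98 above control. The call of Nqo1 was lost without 6 h replicate 2 or 3 and without 12 h replicate 1 or 2. Gsr, glutathione reductase, rose (0.18), a call lost in 5 of 6 fits without 1 array. The mean of Gclm, the partner subunit of Gclc, was 9.848 at 6 h and 9.965 at 12 h. Over the 25 NADPH oxidase and antioxidant genes 6 fell and 4 rose, where 13.9% of all genes fell and 13.1% rose. The rises became 7 under a further quantile normalization and over genes above the median level. They numbered 2 without 6 h replicate 2 or 12 h replicate 3.

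Genes with the largest change by 6 h did not all turn back by 12 h. These 20 genes were chosen on 6 h against control, so their 12 h values share the 6 h arrays with that choice and are a description. Beside Plat, the receptor-modifying protein gene Ramp3 read 10.04, 10.14 and 10.29 at 6 h and 9.92, 9.87 and 9.87 at 12 h (−0.27 ± 0.12, adjusted p = 0.115). Ptprn read 10.33, 10.39 and 10.40 and then 10.34, 10.37 and 10.28 (−0.04 ± 0.06, adjusted p = 0.684), 2.53 above control. Esm1, a secreted proteoglycan, changed by −0.25 ± 0.07 (adjusted p = 0.0263) with overlapping arrays, a call lost without 6 h replicate 2 or 3 and without 12 h replicate 2 or 3. Olr1, a scavenger receptor for oxidised lipoprotein, fell 1.45-fold (−0.53 ± 0.12) and was 3.08 above control.

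Further along, Fgl2, a fibrinogen-like protein, fell 1.98-fold (−0.98 ± 0.12), and C9h6orf141 fell 2.82-fold (−1.50 ± 0.06) from 11.85, 11.82 and 11.93 to 10.33, 10.47 and 10.32. Among the early falls, Vcam1, an adhesion receptor, was at 8.38, 8.14 and 8.53 and then at 8.38, 8.56 and 8.71 (0.20 ± 0.10, adjusted p = 0.192), and Pi15 changed by 0.27 ± 0.13 (adjusted p = 0.166). Ldb2 was higher by 0.40 ± 0.13 (adjusted p = 0.0433), with overlapping arrays, and its call was lost without 6 h replicate 2 or 3 and without 12 h replicate 2 or 3. Lpar4, a lysophosphatidic acid receptor, rose 2.01-fold (1.01 ± 0.09), Zc3h6 2.05-fold (1.04 ± 0.09) and Plpp3, a lipid phosphatase, 1.71-fold (0.78 ± 0.07), and all 3 stayed more than 1 log2 unit below control.

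As list averages, markers of other cell types were low beside those of smooth muscle. Averaged over its 18 genes, the contractile list lay between 12.643 and 12.665 at 6 h and between 12.737 and 12.765 at 12 h. On the same 6 arrays 12 endothelial markers lay between 6.53 and 6.67, and 15 leukocyte and macrophage markers between 6.22 and 6.32. The median gene of all was at 8.00. The 13 fibroblast markers, of which Lum and Dcn also count as matrix genes and Gpx3 as a redox gene, lay between 8.06 and 8.17. That average hides a wide range, with 6 h means from 4.01 for Ly6al to 12.55 for Penk. Mfap5 (11.63) and Lum (11.30) too were above the contractile gene Lmod1 (10.52) at 6 h. Of the endothelial list Esam (0.32 ± 0.06) and Emcn (0.21 ± 0.07) rose, the call of Emcn being lost without either replicate 1 or either replicate 2 array, and Pecam1 (−0.08) and Cdh5 (−0.00) did not pass. In the leukocyte list only Cd74, the invariant chain, rose, from 9.09, 9.02 and 9.08 to 9.65, 9.74 and 9.77 (0.65 ± 0.07, adjusted p = 3.67e-05), while Ptprc and Cd68 stayed at 5.20 to 5.53 and 6.49 to 6.87. In the fibroblast list Penk passed as lower (−0.13 ± 0.04), a call lost with the replicate block, in the fit of the 6 h and 12 h arrays alone, and in 5 of 6 fits without 1 array, the exception being that without 12 h replicate 3. In such bulk RNA fewer cells of a type and less RNA per cell cannot be told apart.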

How the data were processed

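Affymetrix Rat Gene arrays were hybridised with target made from 100 ng of total RNA, per the labels' protocols. Each probe set has 1 deposited log2 value per array. RMA and Partek are the tools the authors used to make these log2 values, as the submitters' processing notes list. Their versions, the background correction and any filter are not stated. Of 29214 probe sets the platform annotation lists 15633, of which 15310 carry 1 symbol and 323 several, and 13581 are unnamed here. For 527 genes with several probe sets the one with the highest mean over 12 arrays was used. Of the genes in the text with several probe sets, C9h6orf141, Ccnb2, Gnl3, Fosl2, Nop16, Insig1 and Gapdh had differences of 1 sign in all, and Eno1, which did not pass, gave 0.018 and, in its others, −0.003 and 0.024. Symbols were looked up in a RefSeq table of GRCr8 (14481 by gene identifier, 5 by accession, 20 kept). The files name no build, so coordinates are those of the promoter table only.

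Group means of all 12 arrays were fitted with limma 3.58.1 (R 4.3.3; 8 residual and 3.37 prior degrees of freedom) on the log2 values, with two-sided tests, Benjamini-Hochberg adjustment over 14506 genes and no filter on dim genes. Steps were tested on simulated data first. Replicate numbers were not treated as pairs. The 25 lists (616 entries, 564 measured) and the comparison itself were chosen with earlier results of these data known, so lists are described by counts and medians. Named were the 15 largest rises and falls among passing genes with separated arrays, up to 4 passing members per list, 3 Ang II receptor genes, and the 10 largest rises and falls of 6 h against control. Python 3.11.15, pandas 2.3.3 and matplotlib 3.10.9 served for tables and figures. The number of arrays limits the precision.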

Additional observations from a re-analysis of the deposited data

How the results depend on the processing

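The counts of 1894 higher and 2016 lower genes stayed within 1.5 times under each alternative except 2. With the Holm adjustment 303 were higher and 367 lower, and with a test against a minimum of 1.5-fold (treat) 46 were higher and 73 lower, both stricter by construction. Over all probe sets, which test more features, 320 were at least 1.5-fold higher and 360 lower, against 196 and 213 genes. Leaving out each of the 6 arrays in turn gave 1539 to 1826 higher and 1562 to 1844 lower genes, and 186 to 234 and 195 to 237 at 1.5-fold. Without 6 h replicate 2 and 12 h replicate 1, the arrays of narrowest spread, an alternative chosen after seeing the data, 1473 were higher and 1527 lower. A further quantile normalization gave 2215 and 2042.

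With the replicate number as a block 1813 genes were higher and 1908 lower. Deviations of same-numbered arrays correlated at −0.103 to 0.299, and those of differently numbered arrays at −0.28 to 0.257. Between 6 h and 12 h the same-numbered arrays correlated at −0.103 to 0.152. Of 12 arrays 7 correlated best with their own number, so these values do not settle whether the numbers mark pairs. The main fit did not use them as pairs.

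Of 124 named genes none that passed in the main fit or in an alternative changed direction between them. Sign changes of genes that passed in neither were not counted. Under Holm 33 lost their call, under treat 69, and under any other alternative at most 5. Signal near background limits the dim genes, for which no detection call was used here.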
